A study of Mus musculus with 8 samples.

Results

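The genes of cholesterol and fatty acid synthesis, sterol transport and sterol efflux were followed in Th17 cells deficient in SRC-3 or in RORgt. A list of 36 genes was taken, and a gene was measured where the platform annotation assigned a probe set to its symbol alone, with the brightest probe set standing for the gene. In this way 34 of the 36 genes were measured, among 11128 genes tested in all. Acat2 and Soat1 were not analysed here. By their roles, 31 of the 34 genes belong to synthesis, uptake and SREBP control. The other 3, Abca1, Abcg1 and Mylip, are called efflux genes here, although Mylip acts on lipoprotein receptors and is grouped with the pumps as a target of the same receptors.

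RNA came from mouse naive CD4+ T cells that were stimulated through CD3 and CD28 and cultured with IL-1, IL-6 and IL-23, a mixture that drives them toward pathogenic Th17 cells, T helper cells that make interleukin 17. Each of 8 arrays held 1 sample, in 4 groups of 2 biological replicates. SRC-3-deficient cells, from mice labelled SRC-3 (f/f), were set against cells of SRC-3 WT mice, and RORgt-deficient cells, from mice labelled RORgt (-/-), against cells of RORgt WT mice. The labels name no Cre driver for the f/f allele, no strain and no age. Whether the 2 replicates of a group are separate mice is not stated. The SRC-3-deficient replicates differed in sex by their transcripts, as given below, so these 2 did not come from 1 mouse. The p-values reflect only how far these samples spread, which in the other groups may be technical. SRC-3 is a coactivator of nuclear receptors, and RORgt is the nuclear receptor that directs Th17 differentiation. The design asks which transcripts depend on each of them in this culture.

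Cholesterol is built from acetyl-CoA by way of mevalonate, squalene and lanosterol. When sterol in the endoplasmic reticulum runs low, SCAP carries the SREBP transcription factors to the Golgi for activation. SREBP2 then turns on the enzymes of cholesterol synthesis and SREBP1 those of fatty acid synthesis, while INSIG proteins hold SCAP back when sterol is plentiful. Surplus sterol is sensed as oxysterol by the LXR receptors, which turn on the efflux pumps ABCA1 and ABCG1 and the ubiquitin ligase MYLIP, which degrades lipoprotein receptors. Activated T cells raise sterol synthesis before they divide, and sterol intermediates of the pathway are known as ligands of RORgt.

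Values are log2 signals from RMA, a method that corrects, quantile-normalises and summarises the probes of each probe set, so a difference of 1 is a doubling. The mean level of 6 T cell markers was between 11.94 and 12.05 on the 8 arrays, with Trat1 the dim one among them. Markers of other cells were set against 7.85, the median of all deposited values. On all arrays 2 of 4 B cell genes (Cd79a and Pax5) stayed below it. So did 4 of 5 myeloid genes (Lyz2, Csf1r, Itgam and Adgre1). The B cell gene Ebf1 and the myeloid gene Cd68 did not, and the B cell gene Cd79b reached 7.85 on 7 arrays. Of the CD8 T cell genes, Cd8a stayed below 7.85 on all arrays and Cd8b1 was above it on all 8. Ncoa3, the gene of SRC-3, had log2 signals of 11.15 and 10.97 in SRC-3-deficient cells and of 11.76 and 11.53 in SRC-3 wild-type cells (a difference of −0.58, SE 0.09, limma adjusted p = 0.0567). The gene of RORgt was not analysed here. By the transcripts Xist and Eif2s3y, both RORgt-deficient samples were male and both of their wild-type samples female, so sex and genotype cannot be told apart in that comparison. Of the SRC-3 samples, deficient replicate 1 was male and the other 3 were female.

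The promoters of the genes whose transcripts fell most in RORgt-deficient cells are shown first, because SREBP acts at such promoters together with NF-Y, a factor that binds CCAAT. Shown are the 4 genes with the lowest fold changes among those with 1 promoter in RefSeq's table for build GRCm38.p6, and Abca1 as an efflux gene. Each run covers 250 bases before to 50 bases after the transcription start, 5′ to 3′ on the strand of the gene. Capitals mark CCAAT on either strand (ATTGG where it lies on the opposite strand) and TCACNCCAC, a form of the sterol regulatory element to which SREBP binds.
Msmo1, chr8:64733529-64733828, minus strand: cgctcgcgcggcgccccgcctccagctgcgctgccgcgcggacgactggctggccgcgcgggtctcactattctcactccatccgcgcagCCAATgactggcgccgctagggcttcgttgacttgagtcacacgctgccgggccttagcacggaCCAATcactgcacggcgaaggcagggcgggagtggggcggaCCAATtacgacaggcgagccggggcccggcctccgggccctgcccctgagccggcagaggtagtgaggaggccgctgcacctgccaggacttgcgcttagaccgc
Cyp51, chr5:4104648-4104947, minus strand: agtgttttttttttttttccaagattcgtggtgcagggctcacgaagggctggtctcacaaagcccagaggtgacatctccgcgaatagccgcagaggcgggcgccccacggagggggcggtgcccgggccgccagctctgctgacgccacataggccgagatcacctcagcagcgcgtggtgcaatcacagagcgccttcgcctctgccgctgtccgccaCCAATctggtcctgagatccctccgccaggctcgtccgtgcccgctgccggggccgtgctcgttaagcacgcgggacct
Insig1, chr5:28071162-28071461, plus strand: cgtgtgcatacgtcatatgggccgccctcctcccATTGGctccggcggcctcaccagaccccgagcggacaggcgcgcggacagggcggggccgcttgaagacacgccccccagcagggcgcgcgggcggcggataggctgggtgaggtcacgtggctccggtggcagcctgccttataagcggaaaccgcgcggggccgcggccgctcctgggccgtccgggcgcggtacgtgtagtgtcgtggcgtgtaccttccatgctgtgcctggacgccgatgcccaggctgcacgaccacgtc
Hmgcs1, chr13:119690101-119690400, plus strand: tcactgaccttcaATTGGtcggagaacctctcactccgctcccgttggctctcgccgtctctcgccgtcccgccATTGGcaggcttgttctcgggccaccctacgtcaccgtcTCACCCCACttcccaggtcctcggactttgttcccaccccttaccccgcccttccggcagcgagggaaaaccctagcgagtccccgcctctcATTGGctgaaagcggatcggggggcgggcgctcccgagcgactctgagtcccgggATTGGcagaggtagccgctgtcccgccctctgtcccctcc
Abca1, chr4:53159846-53160145, minus strand: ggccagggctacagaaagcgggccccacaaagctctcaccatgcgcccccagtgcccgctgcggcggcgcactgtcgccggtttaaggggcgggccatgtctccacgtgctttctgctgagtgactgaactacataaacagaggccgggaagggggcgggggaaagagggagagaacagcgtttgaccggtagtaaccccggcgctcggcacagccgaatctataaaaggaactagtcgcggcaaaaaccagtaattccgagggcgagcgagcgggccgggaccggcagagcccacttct

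Of the 36 listed genes, 28 had a promoter in the table, and Fdps, Fdft1, Sqle, Stard4, Npc1, Scd1, Scd2 and Abcg1 had none. CCAAT was found on either strand in 23 of these 28 genes (82.1%), against 11096 of 27025 genes of the table (41.1%). It was present in 9 of 9 genes with a promoter whose transcripts fell past the threshold in RORgt-deficient cells and in 13 of 17 of the other measured genes, so most promoters of both sets held these letters. The promoters of Abca1, Acaca, Acat2, Elovl6 and Scap held no CCAAT in this window. TCACNCCAC was found in Hmgcs1 alone among the listed genes, starting 137 bases before the transcription start, while 1.44% of all genes of the table held it. In the 5 promoters shown no motif overlapped another, whereas in Fasn, where CCAAT was found 3 times, a pair on opposite strands overlapped. A match is a description of the letters and not a measured binding site.

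**Figure D1:**
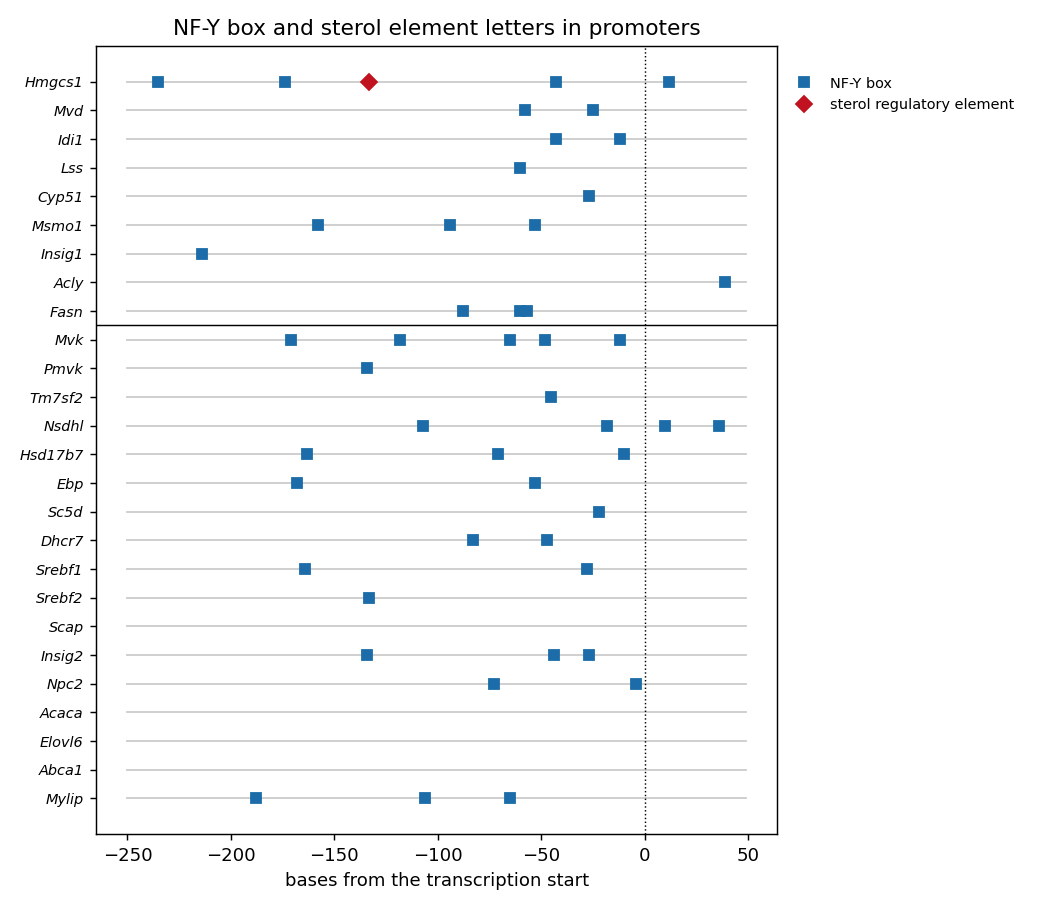
Positions of CCAAT (squares, named NF-Y box) and TCACNCCAC (diamond, named sterol regulatory element) on either strand, in bases from the transcription start, for the measured genes with a RefSeq promoter. The 9 genes above the line fell past the threshold in RORgt-deficient cells and all hold CCAAT, as do 13 of the 17 genes below it.

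In RORgt-deficient Th17 cells, transcripts of the synthesis pathway fell and the efflux pump transcript Abcg1 rose. Of the 31 synthesis, uptake and SREBP genes, 12 fell, 0 rose and 19 did not pass an adjusted p of 0.05 (limma, Benjamini-Hochberg over all genes tested). Of the 3 efflux genes, 1 rose and 2 did not pass. Over all genes tested, 9.37% fell and 10.0% rose in this comparison (19.4% together). The share of genes that fell among the synthesis, uptake and SREBP genes was above this background. The list was chosen with earlier results of these data known, so that share is a description and not a test. The median log2 fold change of the synthesis, uptake and SREBP genes was −0.20 and that of all genes 0.00. That of the efflux genes was 0.18, which is the value of Mylip alone. Both deficient arrays lay below both wild-type arrays in 22 of the 31 genes, where this held for 34.2% of all genes, and above them in 3, where it held for 35.8%. Lower transcript per cell and fewer cells of a kind that carries the transcript cannot be told apart in RNA of bulk samples.

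The early enzymes, which lead from acetyl-CoA to farnesyl diphosphate, gave 4 falls among 6 measured genes. Idi1, the isomerase that makes the reactive isoprene unit, had log2 signals of 11.13 and 11.17 in RORgt-deficient cells and 11.77 and 11.81 in wild-type cells. Deficient cells thus held 0.642 of the wild-type signal (a log2 fold change of −0.64, SE 0.07, limma adjusted p = 0.00191), and its second probe set gave −0.63. Hmgcs1, the HMG-CoA synthase that commits carbon to the pathway, had 11.58 and 11.74 in deficient cells and 12.40 and 12.25 in wild-type cells. The wild-type arrays were higher by more than the spread of either pair (−0.67, SE 0.13, limma adjusted p = 0.0135). Mvd, the decarboxylase before Idi1, had 10.69 and 10.75 in deficient cells against 11.17 and 11.09 in wild-type cells (−0.41, SE 0.07, limma adjusted p = 0.00973). Fdps, the farnesyl diphosphate synthase, had 12.12 and 12.16 in deficient cells against 12.37 and 12.33 in wild-type cells (−0.21, SE 0.05, limma adjusted p = 0.0355). The call of Fdps was lost after a new quantile normalization, after a shift of the arrays to 1 median, without the filter on dim probe sets and without any 1 of the 4 arrays of the experiment (limma adjusted p up to 0.205). The kinases Mvk and Pmvk, which phosphorylate mevalonate in sequence, gave 0.02 (95% interval −0.15 to 0.18) and 0.10 (−0.03 to 0.23) and did not pass.

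From squalene to cholesterol, 4 of 11 genes fell, namely Sqle, Lss, Cyp51 and Msmo1. Sqle, the squalene epoxidase, had 10.97 and 11.01 in RORgt-deficient cells and 11.66 and 11.70 in wild-type cells, a mean of 0.617 of the wild type (log2 fold change −0.70, SE 0.12, limma adjusted p = 0.00952). Lss, which closes the rings to lanosterol, had 10.81 and 11.02 in deficient cells and 11.65 and 11.52 in wild-type cells (−0.67, SE 0.14, limma adjusted p = 0.0159). Cyp51, the lanosterol demethylase, had 10.50 and 10.56 in deficient cells and 11.34 and 11.21 in wild-type cells, a mean of 0.598 of the wild type (−0.74, SE 0.10, limma adjusted p = 0.00473). Msmo1, the methylsterol monooxygenase that acts on the products of Cyp51, had the lowest fold change of the measured genes. Its log2 signals were 11.19 and 11.45 in deficient cells and 12.21 and 12.07 in wild-type cells, a mean of 0.565 of the wild type (−0.82, SE 0.12, limma adjusted p = 0.00554). In all 4 genes the groups were apart by more than either pair was spread. Fdft1, the squalene synthase at the entry, had 12.49 and 12.69 in deficient cells against 12.98 and 12.86 in wild-type cells and did not pass (−0.33, limma adjusted p = 0.0935), with −0.41 in its second probe set.

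The other 6 genes of this segment did not pass, among them some whose enzymes act beside those above, Tm7sf2 on the product of Cyp51 and Nsdhl and Hsd17b7 together with Msmo1. The log2 fold change was −0.22 for the desaturase gene Sc5d, −0.16 for the sterol dehydrogenase gene Nsdhl, −0.12 for the reductase gene Dhcr7 and −0.07 for the reductase gene Tm7sf2. It was −0.04 for Hsd17b7 (95% interval −0.67 to 0.58) and 0.00 for the isomerase gene Ebp (−0.13 to 0.14). The interval of Hsd17b7 was wide because its signal differed within the SRC-3 pairs, with 11.39 and 10.65 in SRC-3-deficient cells and 11.57 and 10.90 in their wild type, and all 8 arrays share the estimate of the spread. Ebp and Nsdhl lie on the X chromosome.

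Among the SREBP regulators, Insig1 alone passed. Insig1, which retains SCAP and is itself a target of SREBP, had log2 signals of 12.12 and 12.22 in RORgt-deficient cells and 12.85 and 12.86 in wild-type cells. The mean was 0.622 of the wild type (log2 fold change −0.68, SE 0.12, limma adjusted p = 0.00814). Transcripts of the transcription factors did not pass. Srebf2 had 12.38 and 12.43 in deficient cells and 12.46 and 12.49 in wild-type cells (−0.07, 95% interval −0.22 to 0.08). Srebf1 had 10.90 and 10.91 in deficient cells and 10.83 on both wild-type arrays (0.08, −0.04 to 0.20). The intervals of Scap (−0.13 to 0.18) and of Insig2 (−0.14 to 0.14) lay on both sides of 0. SREBP proteins are controlled by cleavage, which transcript levels do not measure.

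Of the 3 genes of sterol transport inside the cell, Stard4, a carrier of sterol between membranes, fell. It had 10.42 and 10.45 in RORgt-deficient cells and 10.93 and 10.78 in wild-type cells (log2 fold change −0.42, SE 0.09, limma adjusted p = 0.0183). Npc1 and Npc2, which export cholesterol from lysosomes, gave 0.11 and 0.07 and did not pass.

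All 6 fatty acid genes had estimates below 0 with both deficient arrays below both wild-type arrays, which held for 34.2% of all genes. Of the 6, 2 fell past the threshold, where 9.37% of all genes did. Fasn, the fatty acid synthase, had 12.14 and 12.28 in RORgt-deficient cells and 12.73 and 12.78 in wild-type cells, a mean of 0.685 of the wild type (log2 fold change −0.55, SE 0.07, limma adjusted p = 0.00285). Acly, which supplies cytosolic acetyl-CoA from citrate, had 11.88 and 11.94 in deficient cells and 12.25 and 12.31 in wild-type cells (−0.37, SE 0.07, limma adjusted p = 0.0137). Scd1, a desaturase gene, gave −0.54 (SE 0.18, limma adjusted p = 0.0719), and the remaining 3 genes, Acaca, Scd2 and Elovl6, lay between −0.20 and −0.16. The groups of Elovl6 were apart by a narrow gap, with 11.19 on both deficient arrays and 11.23 and 11.48 in wild-type cells.

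Abcg1, which pumps sterol out of the cell, moved the other way. It had log2 signals of 11.24 and 11.19 in RORgt-deficient cells and 10.25 and 10.14 in wild-type cells, a rise of 2.03-fold (log2 fold change 1.02, SE 0.07, limma adjusted p = 0.000403). The replicates of each pair lay close together and the groups were far apart. Abca1, the pump that loads sterol onto apolipoproteins, had 8.59 and 8.40 in deficient cells and 8.44 and 8.64 in wild-type cells, and these groups overlapped (−0.04, 95% interval −0.27 to 0.19). Mylip had 8.78 and 8.71 in deficient cells and 8.48 and 8.66 in wild-type cells (0.18, −0.07 to 0.43) and did not pass. Abcg1 alone of the 3 efflux genes passed.

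**Figure D2:**
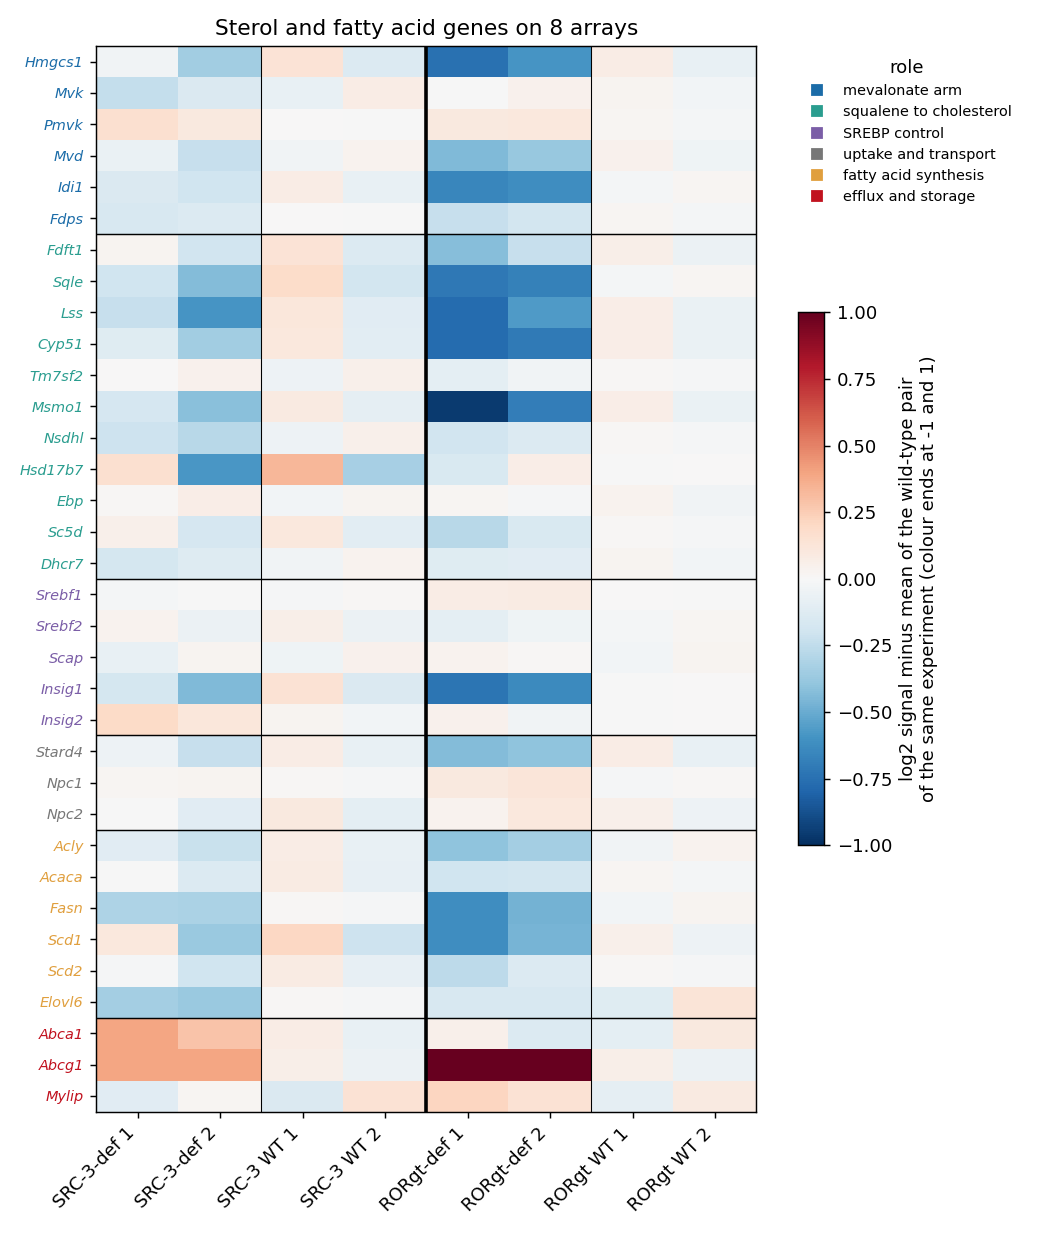
Log2 signal of the 34 genes (rows, by role) on the 8 arrays (columns), minus the mean of the wild-type pair of the same experiment, with blue for lower and red for higher. The RORgt-deficient columns are blue in the 12 genes that fell, such as Idi1, Cyp51, Msmo1, Insig1 and Fasn, and red in Abcg1, while Mvk and Pmvk are near white or pale red there.

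With 1 array left out, the number of the 34 genes past the threshold was 5 (limma, 4 lower and 1 higher) without RORgt-deficient replicate 1, RORgt wild-type replicate 1 or RORgt wild-type replicate 2, and 10 without RORgt-deficient replicate 2. Idi1, Cyp51, Msmo1, Fasn and Abcg1 kept their calls under each of the 16 alternatives, with limma adjusted p of at most 0.049. Hmgcs1, Mvd, Sqle, Lss and Insig1 lost theirs without the first 3 arrays named (limma adjusted p between 0.0529 and 0.113), and Acly and Stard4 without any of the 4 arrays of the experiment (up to 0.118). The log2 fold changes of these 7 genes stayed between −0.77 and −0.34.

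Of 8 genes of cell division, 1 rose past the threshold in RORgt-deficient cells, near the 10.0% of all genes that rose. It was Top2a (log2 fold change 0.56), and 7 did not pass. These 7 were Bub1 (0.56), Aurkb (0.53), Mki67 (0.46), Cdk1 (0.28), Mcm5 (0.08), Mcm2 (0.03) and Pcna (0.00). Both deficient arrays lay above both wild-type arrays in 6 of the 8, where this held for 35.8% of all genes. The mean level of the 8 genes, set against the wild-type pair, was 0.35 and 0.28 in RORgt-deficient cells and 0.04 and −0.04 in wild-type cells. Their part in the falls of the sterol genes was not tested. The 4 measured Th17 markers, Il17a, Il17f, Il23r and Ccr6, fell, with log2 fold changes from −4.11 to −1.59. Of the NK markers Klrd1 rose by 1.90, from 7.01 and 6.71 in wild-type cells to 8.92 and 8.61 in deficient cells. Klrd1 reached 7.85 on these 2 RORgt-deficient arrays alone and so entered the test only through them. Ncr1 and Klrb1c stayed below 7.85 on all arrays. Of the B cell markers, Ebf1 fell by 1.33 and Cd79b gave −0.21 without passing, while of the CD8 markers Cd8b1 gave 0.18 and did not pass. The myeloid marker Cd68 gave −0.37 with groups that did not overlap and did not pass (limma adjusted p = 0.0834). The part of these markers was not tested either. In the SRC-3 experiment the male sample among the SRC-3-deficient cells had a mean level of −0.15 over the 12 genes that fell without RORgt, against −0.33 in the female sample. The wild-type replicates 1 and 2, both female, stood at 0.08 and −0.08, and no label says that a number pairs samples. The part of sex in these values was not tested.

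Other genes of lipid handling were taken from a list of 38, of which 29 were tested. In RORgt-deficient cells 6 fell and 3 rose, and 20 did not pass (median log2 fold change −0.05). Over all genes tested 9.37% fell and 10.0% rose, so the number that rose was near the background. Gpr183, the receptor of an oxysterol that guides lymphocytes, had 10.39 and 10.65 in deficient cells and 11.74 and 11.67 in wild-type cells (−1.19, SE 0.10, limma adjusted p = 0.000739). Tmem97, an endoplasmic reticulum protein that binds NPC1, had 12.02 and 11.91 in deficient cells and 12.52 and 12.54 in wild-type cells (−0.57, limma adjusted p = 0.00201). Aacs, which makes acetoacetyl-CoA for lipid synthesis, had 10.09 and 10.28 in deficient cells and 10.81 and 10.79 in wild-type cells (−0.61, limma adjusted p = 0.00657). Cpt1a, which admits fatty acids to mitochondria for oxidation, went the other way, with 10.90 and 10.81 in deficient cells and 10.36 and 10.20 in wild-type cells (0.57, limma adjusted p = 0.00328). The other 5, chosen after their values were seen, were the lipoprotein receptor genes Lrp8 (−0.42) and Scarb1 (−0.29), Lpin1 (−0.41), the transporter gene Abca7 (0.33) and the elongase gene Elovl5 (0.28).

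In SRC-3-deficient cells none of the 34 genes passed after adjustment over all genes by limma, where 0.189% of all genes were higher and 0.0359% lower (0.225% together). At an unadjusted p under 0.05, 11 of the 34 genes were lower and 3 higher, where 4.33% of all genes were lower and 8.20% higher, so the number higher was near the background. Estimates lay below 0 in 26 of the 31 synthesis, uptake and SREBP genes. Their median log2 fold change was −0.15, beside 0.34 for the efflux genes and 0.02 for all genes. The efflux median is the value of Abca1 alone, with Abcg1 at 0.39 and Mylip at −0.05. Both deficient arrays lay below both wild-type arrays in 14 of the 31 genes and above them in 3, where this held for 14.3% and 23.0% of all genes. Markers also differed in this comparison. Il17f fell (log2 fold change −1.03, limma adjusted p = 0.0347), while Il17a (−1.10), Il23r (−0.68), Ccr6 (0.21), Cd8b1 (0.42), Cd68 (0.31) and Klrd1 (−0.46) did not pass, with groups that overlapped in Ccr6 alone of these 6. The signals of Klrd1 lay between 7.01 and 7.61 here, under 7.85 on every array of the comparison. The B cell markers Ebf1 (0.40) and Cd79b (0.02) overlapped and did not pass. The part of these markers in the values of the sterol genes was not tested. The median of the 31 genes was −0.05 without SRC-3-deficient replicate 2 and −0.20 without SRC-3-deficient replicate 1.

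The smallest p belonged to Abcg1, followed by the lipogenic genes Fasn and Elovl6. Abcg1 had log2 signals of 10.02 and 10.01 in SRC-3-deficient cells and 9.68 and 9.56 in their wild type (log2 fold change 0.39, SE 0.07, 95% interval 0.23 to 0.55, limma adjusted p = 0.0726). Fasn had 11.95 and 11.94 in deficient cells and 12.26 and 12.25 in wild-type cells (−0.31, interval −0.46 to −0.16, limma adjusted p = 0.119). The elongase gene Elovl6, which extends the product of Fasn, had 10.82 and 10.79 in deficient cells and 11.17 and 11.14 in wild-type cells (−0.35, interval −0.55 to −0.16, limma adjusted p = 0.15). In these 3 genes the replicates of a pair lay close together and the groups did not overlap.

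Nsdhl had 11.61 and 11.53 in SRC-3-deficient cells and 11.76 and 11.86 in wild-type cells (log2 fold change −0.24, limma adjusted p = 0.171). Abca1 had 8.10 and 7.99 in deficient cells and 7.78 and 7.63 in wild-type cells (0.34, interval 0.11 to 0.57, limma adjusted p = 0.229). Its signals on both wild-type arrays were under 7.85. Mylip had 8.27 and 8.40 in deficient cells and 8.24 and 8.53 in wild-type cells, and these overlapped (−0.05). Insig1 had 12.49 and 12.22 in deficient cells and 12.80 and 12.52 in wild-type cells (−0.31, interval −0.58 to −0.04, limma adjusted p = 0.337). Srebf1 and Srebf2 each gave −0.01, with intervals of −0.13 to 0.11 and −0.16 to 0.14.

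In the SRC-3 experiment many of the genes differed between replicates. In 23 of the 34 genes replicate 1 was above replicate 2 in both the SRC-3-deficient and the wild-type pair. The share of all genes with this order was not counted. Over all 11128 genes tested, replicates with the same number deviated together in this experiment (correlation 0.54). Sqle had replicate 1 above replicate 2, with 11.67 and 11.44 in deficient cells and 12.05 and 11.69 in wild-type cells. The cell division genes ran the other way, with mean levels of −0.17 and 0.15 in deficient cells and −0.17 and 0.17 in wild-type cells. Their part in the spread of the sterol genes was not tested. Of the 29 other lipid genes tested, none passed in the SRC-3 comparison by limma, with 2 higher and 5 lower at an unadjusted p under 0.05, beside the same 8.20% and 4.33% of all genes.

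**Figure D3:**
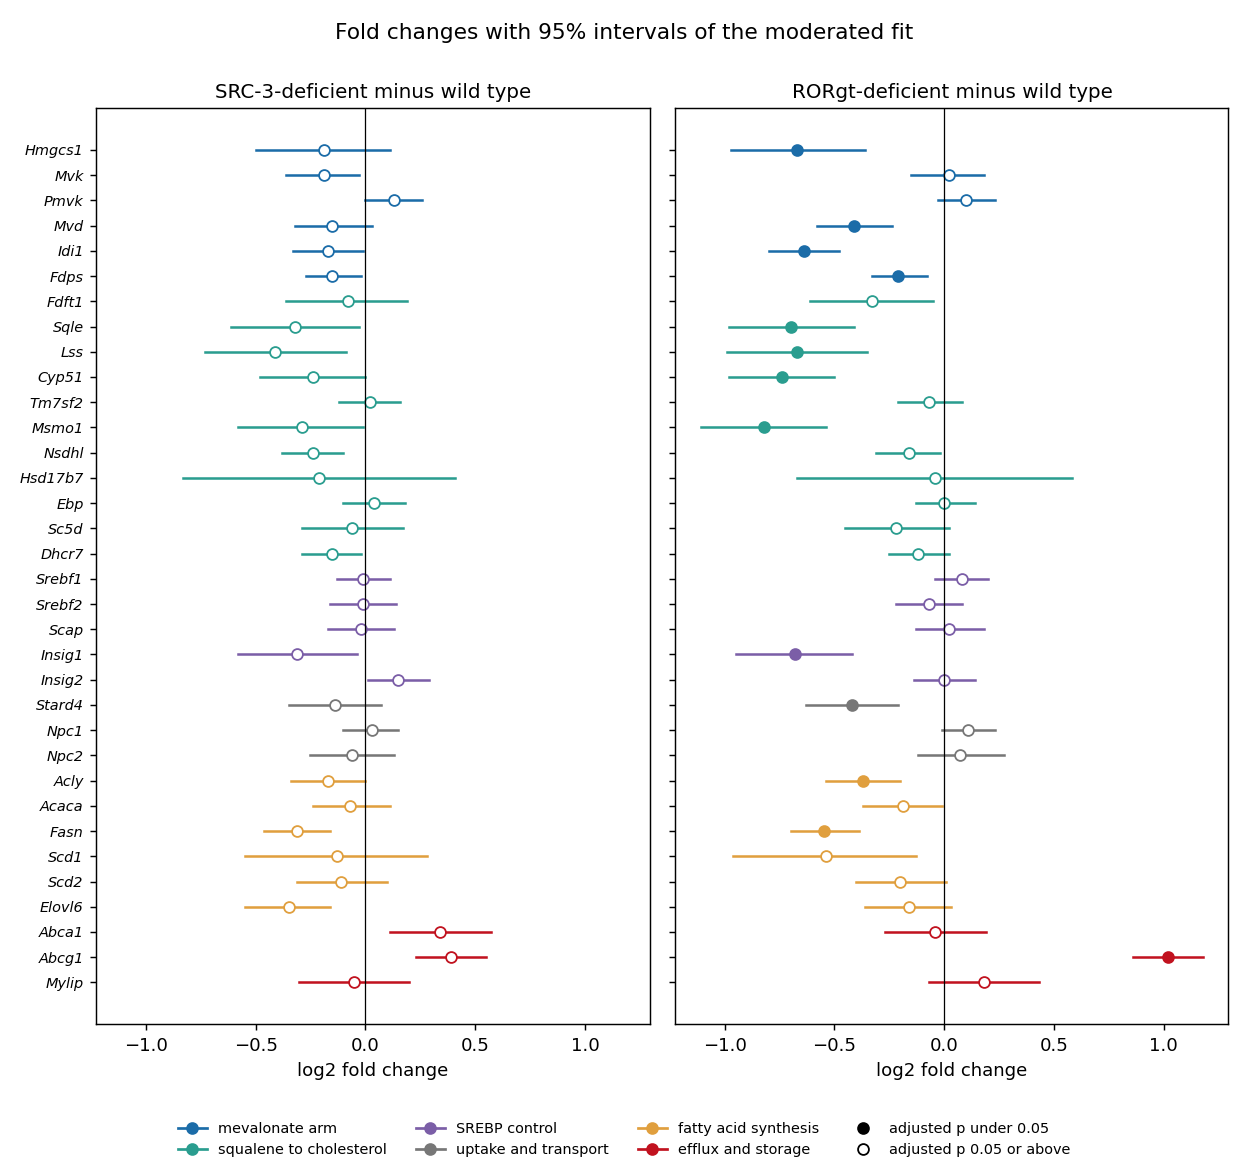
Log2 fold change of the 34 genes in SRC-3-deficient (left) and RORgt-deficient cells (right), each against its own wild type, with 95% intervals of the moderated fit and filled points for an adjusted p under 0.05. On the right 13 points are filled, 12 below 0 and Abcg1 at 1.02, and on the left none is filled.

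**Figure D4:**
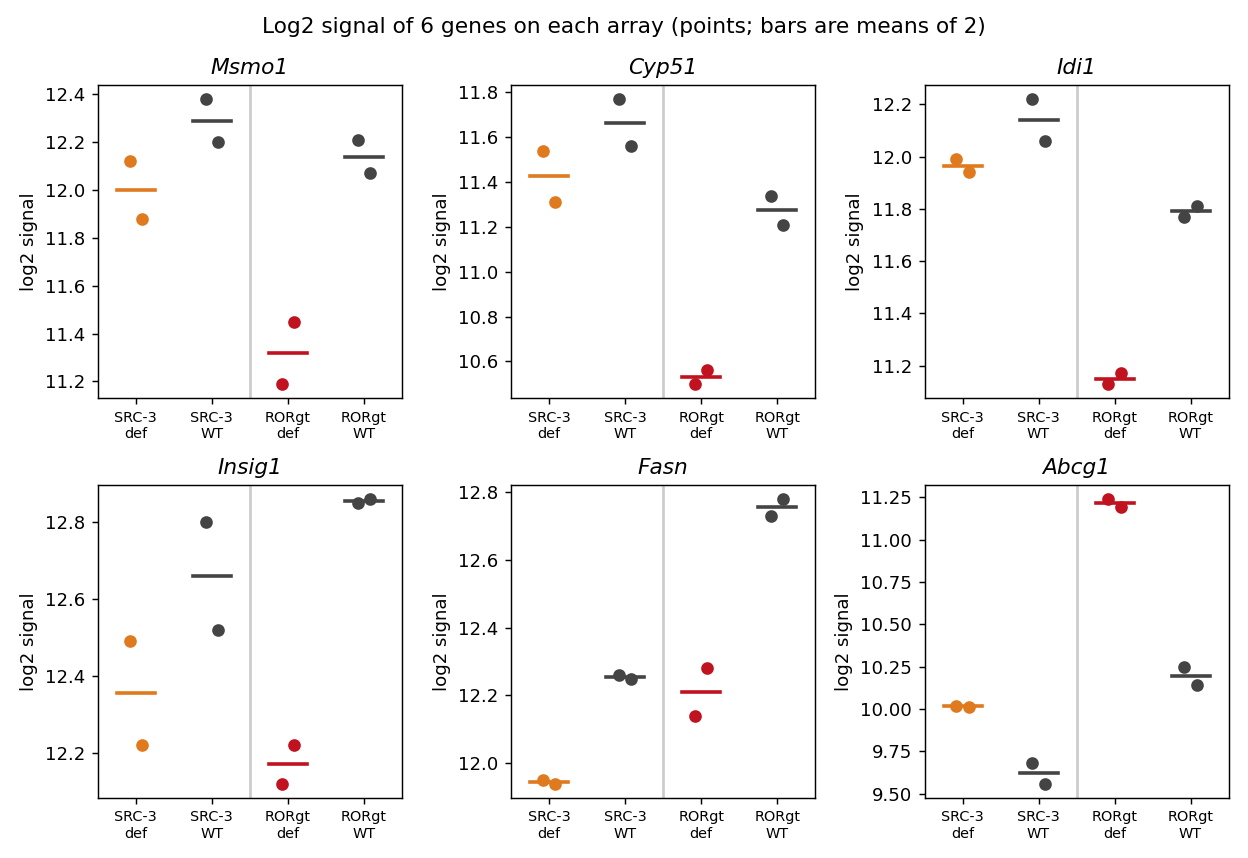
Log2 signal of 6 genes on each array (points) with group means of 2 arrays (bars), on an axis of its own per gene that does not start at 0. In both experiments the deficient pair lies below its wild type in Msmo1, Cyp51, Idi1, Insig1 and Fasn, by a narrow gap in the SRC-3 pairs of Cyp51 and Insig1, and above it in Abcg1.

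The comparisons share no array, so their values can be set side by side. In both experiments, however, male samples stood only among the deficient cells. The part of sex in the signs that the comparisons share was not tested. Both estimates were below 0 in 22 of the 34 genes, both above 0 in 5 and of opposite sign in 7. The 12 genes that fell past the threshold without RORgt had a median log2 change of −0.21 in SRC-3-deficient cells, with a range of −0.41 to −0.14, and −0.65 in RORgt-deficient cells, with a range of −0.82 to −0.21. In SRC-3-deficient cells 12 of these 12 had an estimate below 0, as did 76.4% of all 1043 genes that fell in RORgt-deficient cells, and 10 of the 12 had groups that did not overlap, as did 43.3% of the 1043. The SRC-3 estimate was the smaller of the pair in 12 of the 12, which were picked for passing in the RORgt comparison.

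The difference between the log2 fold changes, SRC-3 minus RORgt, passed for 1 of the 34 genes, where it passed for 1.67% of all genes (0.746% with the SRC-3 value below that of RORgt and 0.926% above it). That gene was Abcg1, with a log2 fold change of 0.39 without SRC-3 and 1.02 without RORgt, a difference of −0.63 (95% interval −0.85 to −0.41, limma adjusted p = 0.0271). The difference kept its size, between −0.69 and −0.57, but lost the call without any 1 of 6 arrays, namely both SRC-3-deficient, both RORgt-deficient and both RORgt wild-type arrays (limma adjusted p between 0.0671 and 0.138). For the synthesis genes the difference was not resolved. It was 0.47 for Idi1 (interval 0.24 to 0.69, limma adjusted p = 0.067), 0.50 for Cyp51 (0.16 to 0.84, limma adjusted p = 0.144) and 0.53 for Msmo1 (0.13 to 0.93, limma adjusted p = 0.186). Abca1 gave 0.38 (0.06 to 0.71, limma adjusted p = 0.23).

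**Figure D5:**
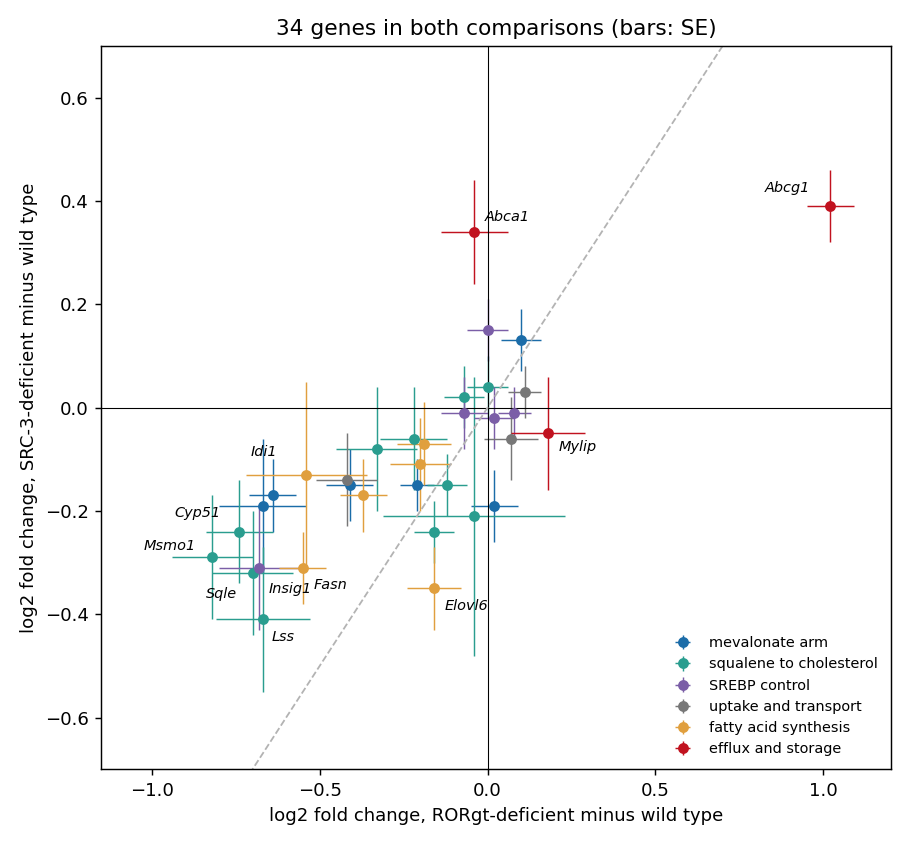
Log2 fold change in RORgt-deficient cells (horizontal) against that in SRC-3-deficient cells (vertical) for the 34 genes, with SE bars, colours for roles and a dashed line where both would be equal. Abcg1 stands alone at 1.02 and 0.39, and the genes with the lowest RORgt values, such as Msmo1 at −0.82 and −0.29, lie above the dashed line.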

How the data were processed

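Total RNA was measured on 8 one-colour Affymetrix arrays, 1 per sample. The deposited values are log2 signals that the authors made with RMA (Expression Console, per the submitters' processing notes), and were not normalised again. The 21789 of 35556 probe sets with 1 symbol in the platform annotation were used. A probe set was kept where 2 or more arrays were at or above 7.85, the overall median, and the brightest stood for its symbol. All 34 measured genes of the list passed, 33 of them on all 8 arrays. RefSeq gene IDs matched all 34 symbols.

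With limma 3.58.1 in R 4.3.3, 1 linear model with 4 group means and a moderated variance was fitted over the 8 arrays, without a batch term. Tests were two-sided, with Benjamini-Hochberg adjustment over 11128 genes and a threshold of 0.05. The fit was tested on simulated data with planted changes larger than the falls of the listed genes, so that test does not cover changes of their size. With 2 arrays a group, the number of arrays limits precision. The genes, lists and tests were chosen with earlier results of these data known. Values are given for genes past the threshold in either comparison or in their difference, for the 5 smallest p in each, and for the efflux genes and main SREBP regulators. The alternatives were other normalizations, filters, gene summaries and fits, and leaving out each array.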

Additional observations from a re-analysis of the deposited data

Results flagged for a closer look

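The log2 fold change of Abcg1 differed between the comparisons, by −0.63 (SRC-3 minus RORgt), in the test of that difference (limma adjusted p = 0.0271, interval −0.85 to −0.41). Both deficient arrays lay above both wild-type arrays in each experiment, so the sizes differed and not the directions.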

How the results depend on the processing

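Of 14 calls of single genes, 108 of 111 values under other normalizations, filters, summaries and fits stayed past the threshold, as did 79 of 112 with 1 array left out, and none changed direction. With the stricter filter at 9.78, limma called 14 genes in the SRC-3 comparison, and the efflux median in the RORgt comparison was 1.02, since Abcg1 alone of the efflux genes was left. With the 4 arrays of a comparison alone, 0 genes passed in the SRC-3 comparison (827 at an unadjusted p under 0.05) and 3389 in the RORgt comparison. With an intensity trend and a robust prior, 47 genes passed in the SRC-3 comparison and 2 of the 34 in the difference. Replicates with the same number deviated together in the SRC-3 experiment (correlation across genes 0.54) but not in the RORgt experiment (0.00), and no label says that a number pairs samples. With the replicate number as a block, 301 genes and 4 of the 34 (Abcg1 higher, Sqle, Insig1 and Fasn lower) passed in the SRC-3 comparison, 3411 genes and 18 of the 34 in the RORgt comparison and 6 of the 34 in the difference. With 1 array left out, the genes called ranged from 0 (without SRC-3 wild-type replicate 2) to 61 (without SRC-3 wild-type replicate 1) in the SRC-3 comparison and from 486 to 2539 in the RORgt comparison. Of the 34 genes, 0 were called in the SRC-3 comparison in each case, 5 to 14 in the RORgt comparison and 0 to 2 in the difference. The medians of the synthesis, uptake and SREBP genes ranged from −0.20 to −0.05 (SRC-3) and −0.23 to −0.16 (RORgt), and those of the efflux genes from 0.26 to 0.41 and from 0.09 to 0.27. With 1 array left out, fewer arrays also entered the fit. The cause of these changes was not tested.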
